A study of Mus musculus with 4 samples.

Results

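Toll-like and NOD-like innate sensors were described in single nuclei of the injured mouse brain by the transcripts of 10 genes, which were the cell-surface receptors Tlr2 and Tlr4, the endosomal receptors Tlr7 and Tlr13, the adaptor Myd88, the cytosolic receptors Nod1 and Nod2, and the inflammasome genes Nlrp3, Pycard and Casp1. The genes were chosen by name, with earlier results of these data known, and all 10 were found among the 33696 features counted in each of the 4 matrices. Nuclei came from a photothrombotic (PT) lesion, a focal ischaemic injury made by lighting a photosensitive dye through the skull, and from the parenchyma around it at 21 days post-injury (dpi). Tissue of 1 male and 1 female mouse was pooled for each genotype, lesion and parenchyma were tagged apart and mixed at 75% and 25%, and 1 Chromium 3′ library was made. All 4 mice had the injury. The library labelled control (below, the control-labelled library) came from mice given as wild type, and the library labelled Cxcl12-cKO (the cKO-labelled library) from mice with Col1a2(creER), a tamoxifen-inducible Cre driven in fibroblasts, together with Cxcl12(flox), a conditional allele of a fibroblast chemokine gene. The study's methods name Cre-negative or flox-heterozygous littermates, and for some experiments mice that were not littermates, as controls of its conditional knockouts. With 1 library per genotype there was no replicate check and no p-value, so values are given with exact 95% intervals that cover counting error only, and genotype, library and the mice within it cannot be told apart.

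Innate sensors are receptors encoded in the germ line that recognise microbial products and molecules set free by damaged cells. Toll-like receptors at the cell surface or in endosomes mostly signal through the adaptor MyD88 to the transcription factor NF-κB, whereas NOD1 and NOD2 sense peptidoglycan fragments in the cytosol. NLRP3 assembles with the adaptor ASC, encoded by Pycard, and the protease caspase-1 into the inflammasome, which matures interleukin-1β and interleukin-18. In brain tissue, microglia and macrophages are the cells best known for this machinery.

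The promoter windows of 5 members are shown because these genes stood for the patterns described here, with Tlr2 as the member that differed most between the libraries, Tlr13, Pycard and Nod1 as examples of members that differed between cell types or states, and Myd88 as the shared adaptor. Each window runs from 250 bases before to 50 bases after the start of transcription in RefSeq on GRCm38.p6, 5′ to 3′ along the gene. The deposited files were counted on GRCm39, so the coordinates belong to the RefSeq table alone. The RefSeq table used here held 10 windows for 8 of the 10 members, and Tlr4 and Tlr7 were not matched in it. Capitals mark matches, on either strand, to GAGGAAGT (the PU.1 type, bound by a transcription factor of myeloid cells), GAAA followed after any 2 bases by GAAA (the interferon regulatory factor type), GGG followed after any 2 bases by TTTCC (the NF-κB type) or GGGCGG (the SP1 type, common near transcription starts).
Tlr2, chr3:83841559-83841858, minus strand: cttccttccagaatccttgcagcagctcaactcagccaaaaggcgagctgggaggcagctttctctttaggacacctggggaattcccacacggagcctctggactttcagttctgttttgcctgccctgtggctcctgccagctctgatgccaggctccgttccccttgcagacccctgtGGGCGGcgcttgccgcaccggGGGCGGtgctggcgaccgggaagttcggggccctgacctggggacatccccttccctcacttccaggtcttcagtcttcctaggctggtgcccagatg
Tlr13, chrX:106143025-106143324, plus strand: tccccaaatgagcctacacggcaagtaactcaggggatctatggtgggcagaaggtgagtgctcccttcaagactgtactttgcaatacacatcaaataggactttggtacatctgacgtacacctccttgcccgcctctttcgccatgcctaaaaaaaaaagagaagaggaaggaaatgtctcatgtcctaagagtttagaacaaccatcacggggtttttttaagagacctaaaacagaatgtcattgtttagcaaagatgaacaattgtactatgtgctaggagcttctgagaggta
Pycard, chr7:127993818-127994117, minus strand: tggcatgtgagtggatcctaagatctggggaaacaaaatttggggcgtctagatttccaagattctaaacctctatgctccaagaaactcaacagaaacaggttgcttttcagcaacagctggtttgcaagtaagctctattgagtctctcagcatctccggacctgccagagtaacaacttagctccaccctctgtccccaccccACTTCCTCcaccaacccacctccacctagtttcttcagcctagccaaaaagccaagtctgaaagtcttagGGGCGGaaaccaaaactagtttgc
Nod1, chr6:54972563-54972862, minus strand: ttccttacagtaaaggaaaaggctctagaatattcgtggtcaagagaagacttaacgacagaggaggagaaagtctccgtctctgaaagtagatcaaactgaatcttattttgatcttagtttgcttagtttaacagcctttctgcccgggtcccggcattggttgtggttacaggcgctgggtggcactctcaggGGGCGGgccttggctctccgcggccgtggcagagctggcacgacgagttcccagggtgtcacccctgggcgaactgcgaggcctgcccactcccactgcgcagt
Myd88, chr9:119339969-119340268, minus strand: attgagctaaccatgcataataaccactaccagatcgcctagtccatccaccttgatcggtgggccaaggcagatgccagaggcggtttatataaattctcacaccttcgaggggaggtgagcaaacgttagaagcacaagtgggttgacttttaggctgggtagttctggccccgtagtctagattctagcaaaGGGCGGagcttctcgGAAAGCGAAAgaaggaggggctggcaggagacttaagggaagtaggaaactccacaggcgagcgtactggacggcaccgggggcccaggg

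The PU.1-type letters were in the Pycard window, at bases 207 to 214 and on the opposite strand, and in 3.20% of the 32851 windows of the table. The interferon regulatory factor type was in the Myd88 window, at bases 211 to 220, and in 3.44% of all windows. The SP1 type was in the windows of Tlr2 (at 2 positions), Myd88, Pycard, Nod1 and Nod2, and in 35.7% of all windows. The NF-κB type, in 1.63% of all windows, was in no member window, and the windows of Tlr13, Casp1 and Nlrp3 and the second window of Nod1 held none of the 4 motifs. No match overlapped another.

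The 4 matrices held 23489 barcodes, of which 21743 passed the filters on UMIs (unique molecular identifiers, here counted transcripts), genes and mitochondrial share. The lesion kept 8095 nuclei of the control-labelled library and 7933 of the cKO-labelled library, with medians of 2962 and 2975 UMIs, and the parenchyma kept 2877 and 2838, with medians of 15915 and 16648. Between 1 and 22 barcodes were shared by a matrix of one library and a matrix of the other, and none within a library. Cxcl12, the targeted gene, was at 106 CPM (UMIs of a gene per 1000000 UMIs of the summed nuclei) in lesional fibroblast-like nuclei of the control-labelled library and at 216 CPM in the cKO-labelled ones, a log2 ratio of 1.03 (0.94 to 1.12). In lesional myeloid-like nuclei it was at 16.9 and 34.4 CPM, a log2 ratio of 1.03 (0.66 to 1.41). The targeted gene was thus higher under the knockout label, and not in fibroblast-like nuclei alone. The sources used here do not give the deleted part of Cxcl12, and 3′ counts check nothing about the deletion, so directions are given between the libraries by their labels.

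Myeloid-like nuclei, a class with 11 of its 12 markers up, carried more of the members' UMIs than their share of all UMIs. It held 1795 lesional nuclei in the control-labelled library and 2311 in the cKO-labelled library. These were 22.2% and 29.1% of lesional nuclei and carried 14.4% and 22.8% of lesional UMIs, yet they carried 55.9% (54.4% to 57.3%) and 61.5% (60.1% to 62.8%) of the lesional UMIs of the 10 members. With each nucleus classed by its own markers in place of its cluster, the last shares fell to 30.9% and 30.8%, so a majority in this class depends on how the class is drawn. The members, which were left out of the clustering, were at least 4 times higher per UMI in myeloid-like than in all other lesional nuclei in both libraries for 7 of 10 (Tlr2, Tlr7, Tlr13, Nod2, Nlrp3, Pycard and Casp1). The same rule was met by 6.28% of the 17449 genes with at least 20 UMIs. The members were chosen with earlier results of these data known, and microglia and macrophages are the cells best known for them. Their share is therefore no test against this background. Other myeloid genes did enter the clustering, and the contrast is given as a description.

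Tlr7, the endosomal receptor for single-stranded RNA, had 969 UMIs and 202 CPM (189 to 215) in lesional myeloid-like control-labelled nuclei and 1214 UMIs and 173 CPM (163 to 182) in the cKO-labelled ones. Over other lesional nuclei this was a log2 ratio of 5.66 in the first and 5.58 in the second library. Of all lesional Tlr7 UMIs, 89.5% and 93.4% lay in myeloid-like nuclei. A Tlr7 UMI was seen in 34.8% and 33.0% of myeloid-like nuclei, against 1.58% and 3.42% of excitatory-neuron-like nuclei, which were sequenced more deeply (medians of 13947 and 12715.5 UMIs against 2174 and 2376). After each nucleus was thinned to 750 UMIs, with none left out, these shares were 14.0% and 12.2% in myeloid-like and 0 of 505 and 0 of 234 in excitatory-neuron-like nuclei.

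Tlr13, a receptor for bacterial ribosomal RNA, was at 34.6 and 33.8 CPM in lesional myeloid-like nuclei of the control- and cKO-labelled libraries, with log2 ratios over other lesional nuclei of 5.49 and 5.26. Tlr2, which recognises bacterial lipoproteins, was at 27.7 and 16.6 CPM, with log2 ratios of 4.46 and 4.72. Nlrp3, the inflammasome sensor, was at 40.0 and 32.6 CPM with log2 ratios of 6.26 and 5.51. All 3 were low elsewhere, and fibroblast-like nuclei, the largest lesional class, held between 5 and 11 UMIs of each gene per library. Pycard, at 47.7 and 41.2 CPM, and Casp1, at 26.9 and 19.2 CPM, were less confined to the class, with log2 ratios of 2.75 and 2.55 for Pycard and 2.94 and 2.10 for Casp1.

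**Figure D1:**
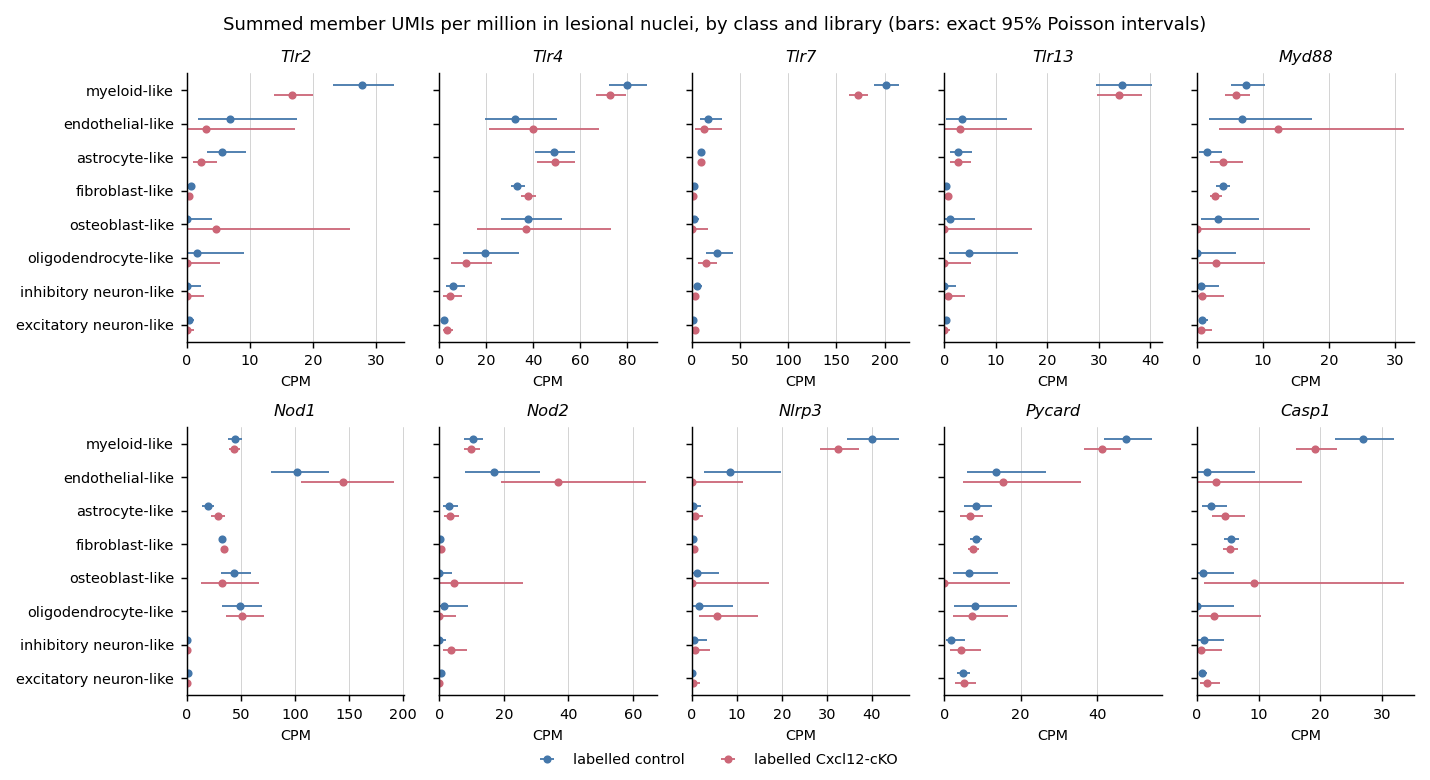
Level of each member in CPM (x axis, own scale in each panel) in 8 classes of lesional nuclei, with 1 point per library and exact 95% Poisson intervals. Myeloid-like nuclei had the highest point in both libraries for 7 of the members, whereas endothelial-like nuclei had the highest point for Nod1 and Nod2 in both libraries and for Myd88 in the cKO-labelled library, where 4 UMIs made the point.

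Tlr4, the receptor for lipopolysaccharide, was spread over more classes. It was at 79.9 CPM (72.1 to 88.3) and 72.9 CPM (66.7 to 79.5) in lesional myeloid-like nuclei, 48.7 and 49.4 CPM in astrocyte-like nuclei and 33.3 and 37.8 CPM in fibroblast-like nuclei of the control- and cKO-labelled libraries. The second-closest marker list of the astrocyte-like cluster was that of oligodendrocyte precursors, at a mean log2 fold of 2.58 against 3.97 for astrocyte markers. A precursor cluster, of 209 nuclei, formed only at resolution 0.5. Astrocytes and precursors therefore cannot be told apart in any value of this class given here. Myeloid-like over astrocyte-like nuclei gave a log2 ratio of 0.71 (0.42 to 1.01) in the first library and 0.56 (0.29 to 0.83) in the second. Astrocyte-like over fibroblast-like nuclei gave 0.55 (0.26 to 0.83) and 0.39 (0.12 to 0.65), so in the pooled nuclei the order of these 3 classes was the same in both libraries. By mouse the order turned for the last pair in the female cKO-labelled mouse, with 32.3 CPM in astrocyte-like and 34.8 CPM in fibroblast-like nuclei, against 69.5 and 37.8 CPM in the male. Osteoblast-like nuclei, at 37.7 and 37.1 CPM, and endothelial-like nuclei, at 32.3 and 39.8 CPM, had counting intervals that overlapped those of fibroblast-like nuclei. Because fibroblast-like nuclei were so numerous, they held 43.9% and 44.1% of the lesional Tlr4 UMIs, against 35.3% and 40.4% in myeloid-like nuclei, with intervals of these shares that overlapped in the cKO-labelled library.

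Nod1 was highest in endothelial-like nuclei. The second-closest marker list of this cluster was that of mural cells, whose markers averaged 4.92 on the log2 fold scale where the endothelial markers averaged 6.20, and Myh11 and Rgs5, genes of smooth muscle cells and pericytes, were among its 10 leading genes. No mural cluster formed, so endothelial and mural cells cannot be told apart in the Nod1 and Nod2 values of this class. Nod1 was at 102 CPM (77.7 to 131) from 60 UMIs in endothelial-like nuclei of the control-labelled library and 144 CPM (106 to 191) from 47 UMIs in those of the cKO-labelled library. Over myeloid-like nuclei, at 44.3 and 43.9 CPM, this was a log2 ratio of 1.20 (0.76 to 1.62) and 1.71 (1.24 to 2.16). Oligodendrocyte-like nuclei, at 48.8 and 51.5 CPM, did not differ from myeloid-like nuclei beyond counting error, with log2 ratios of myeloid-like over oligodendrocyte-like nuclei of -0.14 (-0.69 to 0.46) and -0.23 (-0.73 to 0.31). Fibroblast-like nuclei, at 32.5 and 34.8 CPM, lay a little lower than myeloid-like nuclei, with log2 ratios of myeloid-like over fibroblast-like nuclei of 0.45 (0.21 to 0.68) and 0.34 (0.13 to 0.54), and astrocyte-like nuclei were at 19.3 and 28.5 CPM. Neurons stood apart, with 1 to 10 UMIs and at most 1.32 CPM of Nod1 in each of the lesional excitatory-neuron-like and inhibitory-neuron-like sums.

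Nod2 was also high in this class, at lower counts. Endothelial-like nuclei held 10 UMIs, or 17.0 CPM (8.14 to 31.2), in the control-labelled library and 12 UMIs, or 36.8 CPM (19.0 to 64.2), in the cKO-labelled library. Myeloid-like nuclei were at 10.4 and 9.95 CPM, and the log2 ratio of endothelial-like over myeloid-like nuclei was 0.71 (-0.44 to 1.70) in the first library and 1.88 (0.87 to 2.78) in the second. The excess was therefore beyond counting error in 1 library only. Fibroblast-like nuclei held 4 and 7 Nod2 UMIs, or 0.279 and 0.472 CPM, which set Nod2 apart from Nod1 in that class.

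Myd88, the adaptor of most Toll-like receptors, was thinly counted everywhere, with 36 and 42 UMIs in lesional myeloid-like nuclei (7.49 and 5.97 CPM) and 56 and 42 UMIs in fibroblast-like nuclei (3.90 and 2.83 CPM). Myeloid-like over fibroblast-like nuclei gave a log2 ratio of 0.94 (0.29 to 1.57) in the control-labelled library and 1.08 (0.42 to 1.73) in the cKO-labelled library. Pycard and Casp1 were also counted in fibroblast-like nuclei, Pycard at 8.29 and 7.56 CPM and Casp1 at 5.51 and 5.33 CPM. In lesional T-cell-like nuclei no member reached 20 UMIs over both libraries.

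Most nuclei showed at most 1 member. At least 1 member UMI was seen in 66.0% and 63.5% of lesional myeloid-like nuclei of the control- and cKO-labelled libraries, and UMIs of 2 or more members in 28.4% and 26.7%. The share with at least 1 was 40.2% and 45.5% in endothelial-like, 27.0% and 32.1% in astrocyte-like, 24.0% and 24.5% in fibroblast-like and 15.0% in excitatory-neuron-like nuclei of either library. At 750 UMIs per nucleus the order of the first and the last class held, at 31.9% and 28.5% in myeloid-like and 0.792% and 0.427% in excitatory-neuron-like nuclei.

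Lesional myeloid-like nuclei were then clustered again without the members. The homeostatic-microglia-like state held 795 control-labelled nuclei and 956 labelled Cxcl12-cKO, was led by Sall3 and Sall1 and still had Gpnmb, a gene of phagocytic macrophages, at 1524 and 1897 CPM. A second state of 658 and 916 nuclei was led by F13a1 and Mrc1, took the name border-macrophage-like from 3 of 8 markers and had Gpnmb at 2062 and 3048 CPM, so it is called the macrophage state here. Another state of 279 and 325 nuclei stayed unnamed. Its fibroblast markers summed to 3822 and 2622 CPM, against 421 and 287 CPM in the macrophage state, and 27.2% and 31.7% of its nuclei held transcripts of both sexes.

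Relative to the homeostatic-microglia-like state of the same library, 3 members were higher in the macrophage state in both libraries by the fold rule, a log2 ratio of at least 0.5 in size, which 7.66% of 10862 genes met in that direction. Tlr4 was at 66.2 CPM in the homeostatic-microglia-like and 124 CPM in the macrophage state of the control-labelled library, a log2 ratio of 0.90 (0.57 to 1.24), and at 65.6 and 95.8 CPM in the cKO-labelled library, a ratio of 0.55 (0.25 to 0.84). Tlr13 was at 30.6 and 48.8 CPM in the first library, 0.67 (0.16 to 1.20), and at 30.1 and 45.6 CPM in the second, 0.60 (0.17 to 1.04). Nod2 had log2 ratios of 0.96 (-0.01 to 1.98) and 0.91 (0.07 to 1.81), on 15 to 37 UMIs per state and library.

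Tlr7 and Pycard were lower in the macrophage state in both libraries, a direction that 7.57% of all genes tested met. Tlr7 was at 288 CPM in the homeostatic-microglia-like and 191 CPM in the macrophage state of the control-labelled library, a log2 ratio of -0.60 (-0.80 to -0.39), and at 256 and 148 CPM in the cKO-labelled library, a ratio of -0.79 (-0.98 to -0.61). Pycard was at 61.2 and 36.3 CPM in the first library, -0.76 (-1.24 to -0.28), and at 54.3 and 31.0 CPM in the second, -0.81 (-1.23 to -0.40). Between these states Tlr7 was thus lower and Tlr13 higher in each library. The Tlr13 direction depends on the clustering, since the border-macrophage-like state of a finer clustering gave -2.71 (-8.06 to -0.14) in the cKO-labelled library, from 1 UMI, and 0.32 (-0.82 to 1.36) in the control-labelled library. Nlrp3 was lower beyond counting error in the cKO-labelled library alone (-0.68, -1.13 to -0.23), where the control-labelled library gave -0.23 (-0.70 to 0.24), and Casp1 was within counting error in both.

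The finer clustering separated states within these groups, with wider contrasts for some members and narrower ones for others. A homeostatic-microglia-like state of 581 and 568 nuclei had Gpnmb at 609 and 644 CPM. A state of 202 and 413 nuclei had Gpnmb at 3732 and 3792 CPM and took the name DAM/SAM-like, after disease-associated microglia and scar-associated macrophages. Against the first, the Gpnmb-high state had more Tlr13, at 26.7 against 75.7 CPM in the control-labelled library (log2 ratio 1.5, 0.82 to 2.21) and at 29.1 against 50.6 CPM in the cKO-labelled library (0.80, 0.20 to 1.42). It had less Nlrp3, at 64.5 against 12.6 CPM (-2.35, -3.62 to -1.30) and at 54.0 against 14.4 CPM (-1.91, -2.70 to -1.18). Tlr2 and Pycard were lower with Nlrp3, at -1.37 (-2.69 to -0.25) and -2.40 (-3.63 to -1.33) for Tlr2 and at -1.38 (-2.20 to -0.64) and -1.44 (-2.06 to -0.84) for Pycard. Tlr4 was higher, at 1.20 (0.76 to 1.64) and 0.78 (0.37 to 1.20), so within the Gpnmb-high nuclei the 2 surface receptors stood on opposite sides. Nod2 was within the fold rule there, at 0.22 (-1.38 to 1.72) and 0.48 (-0.73 to 1.77).

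A second DAM/SAM-like state, of 179 and 373 nuclei and with the microglial gene Sall1 present, had the lower Nlrp3 and Pycard in part. Its log2 ratios over the homeostatic-microglia-like state were -1.44 (-2.41 to -0.58) and -0.65 (-1.26 to -0.06) for Nlrp3 and -1.09 (-1.89 to -0.36) and -0.65 (-1.20 to -0.11) for Pycard, whereas Tlr13 was within counting error in both libraries. A border-macrophage-like state of 152 and 104 nuclei, with 6 of 8 markers, had more Nod1 in the control-labelled library, at 34.4 against 91.0 CPM (1.40, 0.67 to 2.12), and was within counting error in the cKO-labelled library (0.62, -0.39 to 1.54). Nod2 was at 27.3 and 26.6 CPM there, from 9 and 6 UMIs. A small state of 57 and 77 nuclei, led by Hp and S100a4, had the most Tlr2 of the 8 finer states with at least 40 nuclei in each library, at 109 CPM (1.73, 0.97 to 2.48) and 61.0 CPM (0.91, 0.07 to 1.71), and of these states also the most Pycard, at 125 CPM (0.76, 0.11 to 1.36) and 145 CPM (1.17, 0.62 to 1.70). Of its nuclei, 17.5% and 18.2% held transcripts of both sexes, whose part in these levels was not tested. The monocyte/dendritic-like state, of 42 and 68 nuclei, held no Nod1 UMI in either library, which allows up to 34.1 and 20 CPM.

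**Figure D2:**
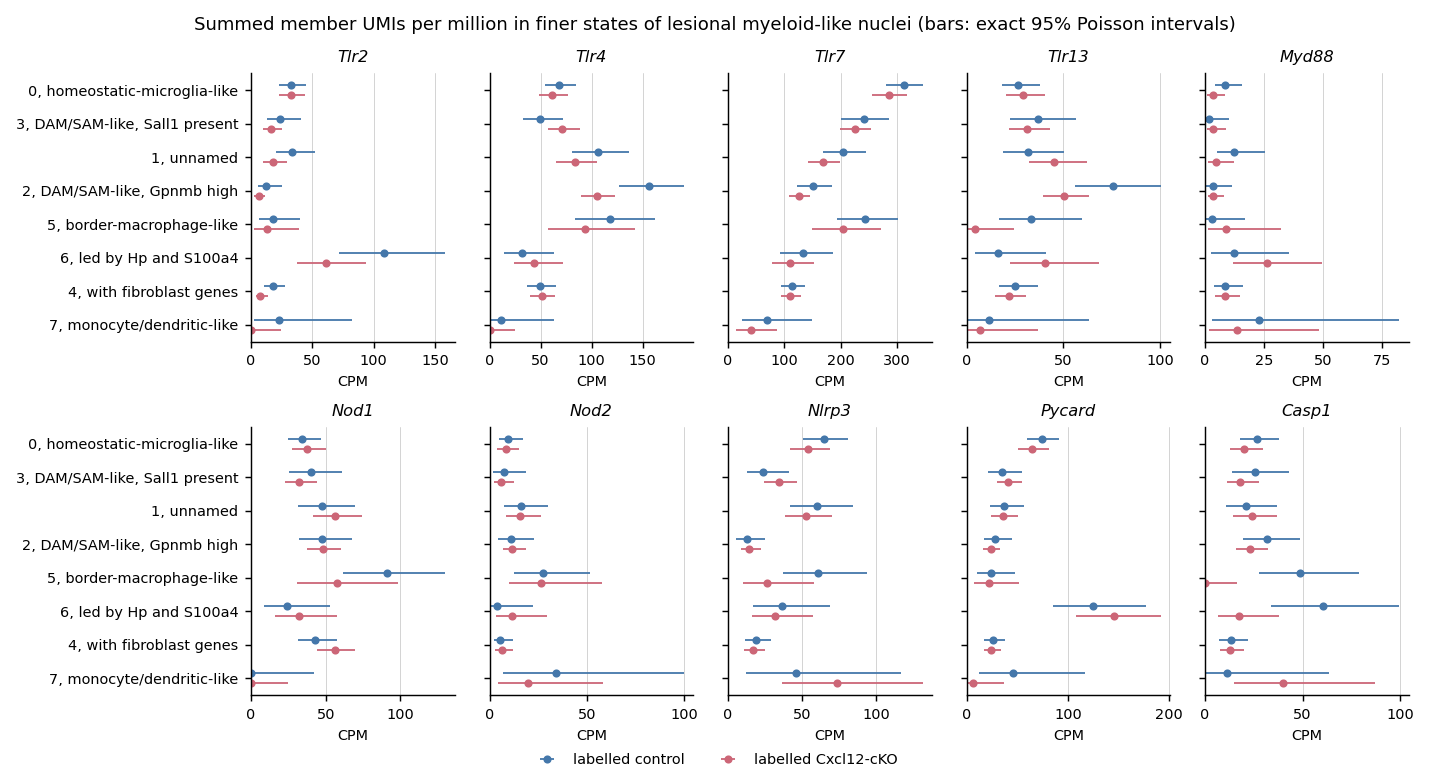
Level of each member in CPM (x axis, own scale in each panel) in the 8 finer states of lesional myeloid-like nuclei that held at least 40 nuclei in each library, with 1 point per library and exact 95% Poisson intervals; the number before each name is the state's number. Of these states, Nlrp3 was lowest in the Gpnmb-high one and Tlr13 highest there in both libraries, and Pycard was highest in the state led by Hp and S100a4, at 125 and 145 CPM.

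The comparison between genotypes addressed the immune cells of lesions in mice with the conditional Cxcl12 allele and a Cre driven in fibroblasts. In lesional myeloid-like nuclei the 10 members summed to 520 CPM (500 to 541) in the control-labelled library and 449 CPM (433 to 465) in the cKO-labelled library, a log2 ratio of -0.21 (-0.29 to -0.14). All 10 ratios were below 0, as were those of 7888 of the 14799 genes with at least 20 UMIs. The median was -0.22 for the members against -0.02 over all these genes. By the fold rule 1 member, Tlr2, was lower and none was higher, where 7.68% of all genes were lower and 6.51% higher, so the count of members past the rule was near the background.

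Tlr2 had 133 UMIs, or 27.7 CPM (23.2 to 32.8), in the control-labelled library and 117 UMIs, or 16.6 CPM (13.8 to 19.9), in the cKO-labelled library, a log2 ratio of -0.74 (-1.11 to -0.37). Casp1 followed at 26.9 and 19.2 CPM (-0.48, -0.84 to -0.13), just short of the fold rule. Tlr7 (-0.23, -0.35 to -0.10) and Nlrp3 (-0.30, -0.58 to -0.01) were lower by less, with intervals that excluded 0. For Tlr4, Tlr13, Myd88, Nod1, Nod2 and Pycard a difference between the libraries was not detectable at this depth. The narrowest of these intervals was that of Tlr4 (-0.13, -0.33 to 0.06), and the widest that of Myd88 (-0.33, -1.01 to 0.36).

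Markers of the class itself differed between these sums. The 12 myeloid markers, all detected, were at 5022 CPM in the control-labelled library and 4066 CPM in the cKO-labelled library. Whether the members differed by more than these markers was not tested. Fibroblast transcripts also differed. The 10 fibroblast markers, all detected, were at 1309 CPM in lesional myeloid-like control-labelled nuclei and 861 CPM in the cKO-labelled ones. The 6 neutrophil markers, with Ly6g at 0 in both libraries, were at 655 and 291 CPM, and 1 nucleus labelled control held 1677 of that library's 1735 UMIs of S100a8 and S100a9. This list includes Csf3r, which is also among the 10 leading genes of the myeloid-like cluster. In nuclei of the male control-labelled mouse Csf3r alone was at 266 CPM, with every other marker of the list at 0. The list is therefore no measure of neutrophil transcripts in this class. Without the nuclei that had an S100a8 or S100a9 UMI, an alternative chosen after the data were seen, Tlr2 had a ratio of -0.73 and the summed members -0.21. Without the unnamed state that carried fibroblast genes, also chosen afterwards, Tlr2 had -0.69, Casp1 -0.47 and the summed members -0.27.

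**Figure D3:**
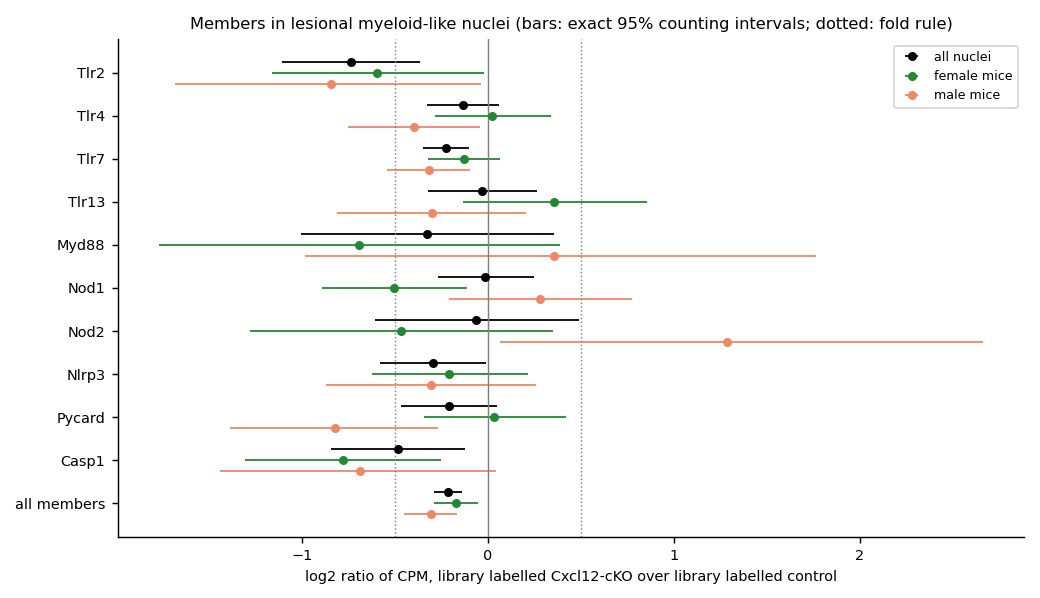
Log2 ratio of CPM of the cKO-labelled library over the control-labelled library (x axis) for each member and their sum in lesional myeloid-like nuclei, over all nuclei and over those assigned to the female or to the male mice, with exact 95% counting intervals and the fold rule dotted. Tlr2, Tlr7, Nlrp3 and Casp1 lie left of 0 in all 3 sets of nuclei, and Nod2 spans from -0.47 in the female to 1.28 in the male mice.

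Within a library, nuclei were assigned to the female or male mouse by Xist and Y-linked transcripts, which gave 693 and 539 lesional myeloid-like nuclei in the control-labelled library and 1137 and 531 in the cKO-labelled library. Tlr2 was at 26.9 CPM in the female and 22.7 CPM in the male control-labelled mouse, and at 17.8 CPM in the female and 12.6 CPM in the male cKO-labelled mouse. Casp1 was at 33.2 and 25.9 CPM in the control-labelled mice and at 19.4 and 16.1 CPM in the cKO-labelled ones. For these genes both mice of one label lay below both of the other, although the counting interval of the lowest control-labelled mouse (15.8 to 31.6 CPM for Tlr2, 18.5 to 35.3 CPM for Casp1) overlapped that of the highest cKO-labelled mouse (13.5 to 23.0 and 14.9 to 24.8 CPM).

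Tlr7 was at 190 and 227 CPM in the female and male control-labelled mice and at 174 and 182 CPM in the cKO-labelled ones. Nlrp3 was at 43.2 and 37.6 CPM against 37.5 and 30.5 CPM, so its groups were parted by less than the counting error of any of these values. In all, both cKO-labelled mice lay below both control-labelled mice for 4 of 10 members (Tlr2, Tlr7, Nlrp3 and Casp1), which held for 18.1% of 13846 genes, and above them for none, which held for 16.2%.

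**Figure D4:**
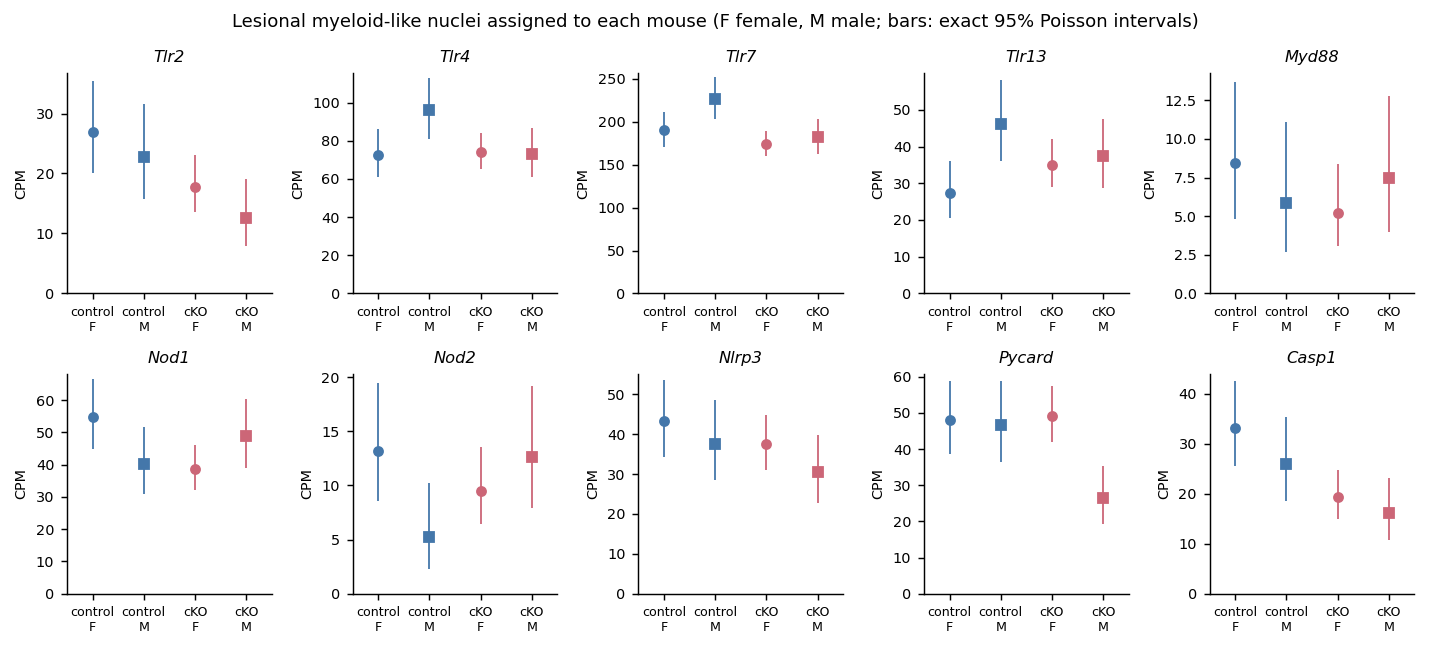
Level of each member in CPM (y axis, own scale in each panel, starting at 0) in lesional myeloid-like nuclei assigned to each of the 4 mice, with exact 95% Poisson intervals. Tlr2 and Casp1 were lower in both cKO-labelled mice, at 12.6 to 17.8 and 16.1 to 19.4 CPM, than in both labelled control, at 22.7 to 26.9 and 25.9 to 33.2 CPM, whereas Pycard was low in the male cKO-labelled mouse alone, at 26.4 CPM.

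The other 6 members did not part the mice by label. Pycard was at 48.0, 46.7 and 49.1 CPM in the female and male control-labelled mice and the female cKO-labelled mouse, and at 26.4 CPM (19.4 to 35.2) in the male cKO-labelled mouse. Nod2 was lowest in the male control-labelled mouse, at 5.19 CPM from 8 UMIs, against 9.52 to 13.2 CPM in the other 3 mice. Tlr7 and Tlr13 lie on the X chromosome, and their log2 ratios of female over male were -0.25 (-0.47 to -0.04) and -0.75 (-1.29 to -0.21) in the control-labelled library and -0.06 (-0.27 to 0.14) and -0.09 (-0.54 to 0.37) in the cKO-labelled library. No member was higher or lower in the female than in the male mouse by the fold rule in both libraries, where 4.61% of genes were higher and 2.21% lower.

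By state, the library difference in Tlr2 was larger in the macrophage state, where the gene was at 28.2 and 12.3 CPM in the control- and cKO-labelled libraries (log2 ratio -1.20, -1.90 to -0.51). In the homeostatic-microglia-like state it was at 28.4 and 25.1 CPM (-0.18, -0.74 to 0.39). In the unnamed state with fibroblast genes it was at 27.5 and 14.8 CPM (-0.89, -1.70 to -0.10). These intervals overlap, and the difference between the states was not tested. Casp1 had similar ratios in both, at -0.60 (-1.17 to -0.04) in the macrophage state and -0.51 (-1.13 to 0.11) in the homeostatic-microglia-like state. The summed members had -0.36 (-0.49 to -0.23) in the macrophage and -0.17 (-0.29 to -0.05) in the homeostatic-microglia-like state. The myeloid markers were also lower under the knockout label, at 4901 and 3858 CPM in the macrophage state. They were at 5898 and 5127 CPM in the homeostatic-microglia-like state. In the macrophage state the neutrophil markers, Csf3r among them, were at 1277 CPM in the control-labelled library and 181 CPM in the cKO-labelled library. S100a9 was at 645 CPM in this control-labelled state and at most 0.809 CPM in the others of that library. The nucleus with 1677 of the 1735 UMIs of S100a8 and S100a9 therefore lay in this state. The part of the nuclei with these UMIs in the ratios was tested only over all myeloid-like nuclei, as given above.

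Outside the myeloid class few members differed between the libraries. In lesional fibroblast-like nuclei, the class in which the Cre is driven, the summed members were at 87.8 CPM in the control-labelled library and 92.2 CPM in the cKO-labelled library, a log2 ratio of 0.07 (-0.04 to 0.18). Tlr4 was the member there with the narrowest interval, at 0.18 (0.0034 to 0.36), and Nod1 had 0.09 (-0.09 to 0.28). In astrocyte-like nuclei Nod1 was at 19.3 and 28.5 CPM, a ratio of 0.57 (0.05 to 1.10). This difference lay in the male mice, at 11.97 CPM in the control-labelled and 31.4 CPM in the cKO-labelled male, against 22.9 and 22.8 CPM in the females. Tlr4 had a pooled ratio of 0.02 (-0.33 to 0.37) there, over mice that went opposite ways, from 56.0 to 32.3 CPM in the females and from 41.2 to 69.5 CPM in the males. In endothelial-like nuclei, of which there were 199 and 101, Nod1 had a ratio of 0.50 (-0.08 to 1.07) and Nod2 of 1.11 (-0.22 to 2.48), neither beyond counting error.

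Lesion and parenchyma could be compared within each library for astrocyte-like, neuronal and, with 32 and 46 parenchymal nuclei only, myeloid-like nuclei. Tlr4 was higher in lesional than in parenchymal astrocyte-like nuclei in both libraries. It was at 48.7 CPM in the lesion and 6.88 CPM in the parenchyma of the control-labelled library (log2 ratio 2.82, 0.94 to 5.88), and at 49.4 and 9.15 CPM in the cKO-labelled library (2.43, 0.86 to 4.73), with 2 and 3 parenchymal UMIs behind the lower values. The part of the mix of astrocytes and oligodendrocyte precursors in each region was not tested. Tlr7, a gene of myeloid-like nuclei, had 25 and 28 UMIs in lesional and none in parenchymal astrocyte-like nuclei, which allows up to 10.3 and 9.15 CPM there, so no difference in Tlr7 was detectable. In excitatory-neuron-like nuclei Tlr4 was at 2.11 CPM in the lesion against 0.601 CPM in the parenchyma (1.81, 0.80 to 2.78) and at 3.21 against 1.08 CPM (1.58, 0.42 to 2.59). A Tlr4 UMI was seen in 3.17% and 3.42% of these lesional nuclei and a UMI of Tlr7, the gene of myeloid-like nuclei, in 1.58% and 3.42%, with overlapping intervals, and Tlr7 had ratios of 0.49 (-0.57 to 1.43) and 1.42 (0.20 to 2.48) between the regions. The neuronal Tlr4 shares were not above those of Tlr7 beyond counting error and are not read as expression.

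Pycard went the other way. In excitatory-neuron-like nuclei it was at 4.87 CPM in the lesion and 10.3 CPM in the parenchyma of the control-labelled library (log2 ratio -1.09, -1.61 to -0.60), and at 5.14 and 8.93 CPM in the cKO-labelled library (-0.80, -1.62 to -0.08). In myeloid-like nuclei it was at 47.7 against 140 CPM (-1.56, -2.39 to -0.58) and 41.2 against 162 CPM (-1.97, -2.70 to -1.15), from 12 and 16 parenchymal UMIs. Pycard was thus lower in the lesion in both of these classes and in both libraries. The source of the Pycard UMIs in excitatory-neuron-like nuclei was not tested, and the regions are not compared here for Pycard in other classes. Tlr2 was lower in lesional myeloid-like nuclei of the cKO-labelled library (-1.87, -3.03 to -0.39) and within counting error in the control-labelled library (-0.34, -1.92 to 1.96), and the reverse held for Tlr7, which was higher in the lesion in the control-labelled library alone (1.11, 0.13 to 2.33).

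Genes that work with the members were taken from 5 lists, and counted in lesional myeloid-like nuclei by the same fold rule between the libraries. Of the other Toll-like receptors and their coreceptors, 13 of 15 had enough UMIs, of which none was higher and 1 lower, with a median log2 ratio of -0.28. The lower gene was Cd14, the lipopolysaccharide coreceptor of TLR4, at 17.3 and 6.82 CPM (-1.34, -1.88 to -0.81). Of the most counted genes of that list, Ly86, which encodes the partner of CD180, had -0.38 (-0.45 to -0.32), Cd180 itself 0.21 (0.12 to 0.30) and Unc93b1, the chaperone of endosomal receptors, -0.28 (-0.37 to -0.19). Among 15 of 16 adaptors and kinases of the pathway none passed the rule, with a median of -0.01, and Pik3ap1 (-0.04), Irak2 (0.07) and Tab2 (0.02) had intervals that included 0.

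Of 22 other NOD-like receptor and inflammasome genes 19 had enough UMIs, and their median was -0.09. Naip1, a receptor for bacterial needle protein, was higher on 6 and 18 UMIs (1.04, -0.36 to 2.66), and Txnip, a thioredoxin-binding protein, was lower at 46.8 and 29.99 CPM (-0.64, -0.92 to -0.37). The most counted genes, Nek7 (-0.12), Aim2 (-0.11) and Nlrp1b (0.17), were within the rule. All 8 cytosolic nucleic acid sensors and their partners had ratios below 0, as did 7888 of all 14799 genes, with a median of -0.31, and 1 passed the rule, Sting1, the adaptor for cyclic dinucleotides, at 16.2 and 7.68 CPM (-1.08, -1.61 to -0.56). Tbk1 (-0.09), Ifih1 (-0.27) and Rigi (-0.16) did not pass it.

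The list of NF-κB subunits, regulators and outputs had 4 of the 15 counted genes lower, none higher and a median of -0.18, where 7.68% of all genes were lower and 6.51% higher. They were the chemokine genes Cxcl10, at 13.3 and 3.69 CPM (-1.85, -2.57 to -1.17), and Ccl2, at 6.66 and 3.69 CPM (-0.85, -1.66 to -0.06), the cytokine gene Il1b, at 21.2 and 8.95 CPM (-1.25, -1.72 to -0.78), and Nfkbia, the NF-κB inhibitor, at 47.9 and 32.6 CPM (-0.56, -0.83 to -0.29). The subunit genes Nfkb1 (-0.17) and Rel (-0.18) and the regulator Nfkbiz (-0.36) stayed within it. A finer state led by Rsad2 and Ifit1, with Cxcl10 among its 10 leading genes, held 26 control-labelled and 7 cKO-labelled nuclei (1.45% and 0.303% of lesional myeloid-like nuclei), and its part in the Cxcl10 ratio was not tested. Cd14, Naip1, Txnip, Sting1 and these 4 genes were named because they passed the rule, after their values were seen. Their ratios were not taken by mouse or under the alternatives. The myeloid markers were also lower under the knockout label, at 5022 and 4066 CPM, and whether these genes differed by more was not tested.

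Over 26 sums of nuclei by class, region and library, each of at least 50 nuclei, the genes whose level was most like that of a member differed between members, also within a role. Pearson's r of log2(CPM + 1) was 0.989 for Tlr7 with Csf3r, 0.970 for Nlrp3 with Lrrc25, 0.95 for Tlr13 with Tnfaip8l2 and 0.893 for Tlr2 with Cx3cr1, all of them genes of myeloid cells. Tlr4 was most like Aff1 (0.962), Nod1 most like Slc10a7 (0.958) and Nod2 most like Tal1 (0.887). Casp1 was most like Tnfaip3 (0.880), Pycard most like Rab5if (0.885) and Myd88 most like Nudt14 (0.850). The sums share libraries and depth, and these correlations are descriptions without a test.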

How the data were processed

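Nuclei of 2 gene expression libraries, 1 per genotype, were analysed, and the 2 tag libraries served to assign regions. The authors deposited 4 filtered matrices of UMI counts, 1 per region and library, whose values are whole and not normalized. Per the submitters' processing notes these came from Cell Ranger 9.0.0 and GRCm39, and whether intronic reads were counted was not given in the sources used here.

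Barcodes in the outer 2.5% by UMIs or genes, or the highest 2.5% by mitochondrial share, were removed, which kept nuclei with 758 to 36243 UMIs and 585 to 6417 genes. Counts were scaled to 10000 per nucleus, log-transformed and clustered with scanpy 1.11.5 and leidenalg 0.10.2 (3000 variable genes, 30 principal components, 20 neighbours, Leiden resolution 0.25). The members, the pathway lists, Cxcl12, sex-linked genes and mitochondrial genes did not enter the clustering. Lesional myeloid-like nuclei were reclustered on 2000 variable genes at resolutions 0.25 and 0.5, the second for the finer states. A cluster was named "-like" from at least 3 markers seen in at least 10% of its nuclei at a log2 fold over 0.5 and a mean fold over 0, thresholds chosen once the clusters were known. The finer state led by Hp and S100a4 met the DAM/SAM rule, but its leading genes go against that name. Scrublet marked 27 and 15 lesional and 2 and 1 parenchymal barcodes of the control- and cKO-labelled libraries, so it had not worked, and no doublet call was used. The alternative without the highest 10% of its scores is therefore no check on doublets.

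UMIs were summed per class, region and library and divided by the summed UMIs of those nuclei (CPM). Log2 ratios printed with an interval were taken from the sums as counted, with exact conditional intervals. For the rules applied to all genes and the medians over lists, 0.5 was added to each sum. Levels carry exact Poisson and shares Clopper-Pearson intervals, all at 95%, and a count of 0 was read as up to 3 counts. The fold rule was a log2 ratio of at least 0.5 in size with at least 20 summed UMIs, and was applied to all genes for the background. Nuclei were assigned to mice by Xist against Y-linked UMIs, and 9.75% to 14.3% of nuclei per matrix held both. The text names all 10 members, from each list the 3 genes with the most UMIs in lesional myeloid-like nuclei, and the genes most correlated with each member. Scripts were tested on simulated data. Members and lists were chosen with earlier results of these data known. Alternatives in scaling, weighting, clustering, class definition, Scrublet scores, nuclei of both sexes, filters, mice and mix of states were run. Intervals and sums were computed in scipy 1.17.1 and numpy 2.4.6 under Python 3.11.15.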

Additional observations from a re-analysis of the deposited data

Results flagged for a closer look

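For 6 members the log2 ratio of the cKO-labelled over the control-labelled library in lesional myeloid-like nuclei lay on opposite sides of 0 in the mice of either sex. The difference between the sexes was not tested, since each label had 1 mouse of either sex. Nod2 had -0.47 in female and 1.28 in male mice, on 8 to 31 UMIs per mouse. Nod1 had -0.50 for females against 0.28 for males, and Myd88 -0.69 against 0.36. Tlr13 had 0.35 for females against -0.30 for males. In the same order, Pycard had 0.034 and -0.82, and Tlr4 0.025 and -0.40. The 4 members that were lower in both sexes were Tlr2, Tlr7, Nlrp3 and Casp1.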

How the results depend on the processing

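Over 12 alternatives the summed members kept a log2 ratio between -0.31 and -0.17 in lesional myeloid-like nuclei, with -0.31 in the male mice alone. Tlr2 (-0.84 to -0.52), Casp1 (-0.78 to -0.38), Nlrp3 (-0.36 to -0.15) and Tlr7 (-0.32 to -0.13) were below 0 in all 13 settings, the reported one included. Of 120 member ratios under the alternatives, 113 moved by less than their counting interval and 7 moved by more. A change of sign was counted only for a called ratio, here that of Tlr2 alone, which kept its sign. The ratios of Tlr4, Tlr13, Myd88, Nod1, Nod2 and Pycard crossed 0, each being below 0 in 11 or 12 of the 13 settings. The count of members lower by the fold rule, reported as 1, was 2 with nuclei classed 1 by 1 from their own markers, with the highest 10% of Scrublet scores removed, with nuclei of both sexes removed, with a 5% filter, with states weighted alike and, chosen after the data were seen, without the unnamed state with fibroblast genes. The second gene was Casp1 in each of these but the last, where it was Myd88. The count was 4 in female and 3 in male mice alone, where 1 member, Nod2, was higher. The share of lesional member UMIs in myeloid-like nuclei, reported as 55.9% and 61.5%, was 30.9% and 30.8% with nuclei classed in that way, 58.9% in the control-labelled library without the highest Scrublet scores, 54.1% and 67.5% in the female mice and 50.1% in the cKO-labelled male mouse. The higher Tlr13 of the macrophage state reversed to -2.71 in the cKO-labelled library when the border-macrophage-like state of the finer clustering, with 1 UMI of Tlr13, took its place. Centring on the median of all genes shifted ratios by 0.02. The causes of these changes were not tested. No paired analysis was possible because each group had 1 library.

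Depth limits the thinly counted members most. Myd88 and Nod2 had 36 to 70 UMIs per library in lesional myeloid-like nuclei, and parenchymal myeloid-like nuclei numbered 32 and 46. Each label stands on 1 library of 1 female and 1 male mouse, and intervals cover counting error only.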
